A study of Mus musculus with 6 samples.

Results

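A set of 37 mouse imprinted genes was followed in the tibialis anterior, a fast muscle of the lower hind leg, of wild-type mice and of mice with a deletion in the dystrophin gene. The genes were taken by symbol from a list, and all 37 were found among the 54232 genes of the count table. Of these, 33 held at least 30 counts over the 6 libraries and are reported here, and 31 passed the expression filter and were tested within the 14335 genes that passed it. Libraries came from C57BL6 mice aged 1 month. The WT group (WT 1, WT 2 and WT 3) carried no reported allele, and the D51 group (D51 4, D51 5 and D51 6) lacked exon 51 of Dmd, per the labels. The labels name biological replicates in each group, and nothing in them says whether animals shared a litter or a day. The comparison addresses which transcripts differ in muscle once this exon is gone.

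Dmd encodes dystrophin, which ties the actin cytoskeleton of the fibre to the surrounding matrix. Its level checked the genotype labels and was 235, 249 and 266 CPM (counts scaled to library totals, with library sizes corrected by the TMM factors of edgeR) in WT 1, 2 and 3 against 47.7, 46.3 and 51.1 CPM in D51 4, 5 and 6. Every D51 library lay far below every WT library (log2 fold change -2.37, SE 0.0944, edgeR adjusted p = 2.76e-05). Between 15681945 and 21020353 reads per library were assigned to genes. The summed level of 8 muscle fibre markers, from 74200 to 119268 CPM, was high in all 6 libraries, and none of the 8 was at 0 counts.

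Imprinted genes are expressed mainly or only from the allele inherited from 1 parent, and most lie in clusters governed by a control region that is methylated on the maternal or the paternal chromosome. Many of them act on fetal growth, placental function and the exit of precursor cells from the cell cycle, and the expression of several drops sharply after birth. In muscle, H19, Igf2, Dlk1 and Peg3 are known from development and from the precursor cells of the fibre. The counts used here sum both alleles, so they give the level of a gene and not its parental origin. The parental allele named for each gene below is background.

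The list includes hosts of microRNAs, and the mature sequences from RefSeq (build GRCm38.p6) of the 2 hosts that were higher in D51 muscle are shown with their seed, bases 2 to 8, in capitals. H19 holds a microRNA hairpin (Mir675) with mature arms at chr7:142577112-142577133 and chr7:142577078-142577099 on the reverse strand. Mest holds Mir335, with arms at chr6:30741314-30741336 and chr6:30741354-30741375 on the forward strand. The 4 arms have 4 different seeds.
mmu-miR-675-5p: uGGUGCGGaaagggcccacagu
mmu-miR-675-3p: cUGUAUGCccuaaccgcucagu
mmu-miR-335-5p: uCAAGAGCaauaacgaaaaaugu
mmu-miR-335-3p: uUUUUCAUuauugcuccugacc
Gene counts from poly(A) libraries measure the host transcripts and not these mature microRNAs. On chromosome 12, Mirg holds 14 microRNA loci on its own strand, Rian 3 and Meg3 2.

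Promoter sequence is shown for 3 places that the results return to, the start region shared by Peg3 and Usp29 and the starts of Mest and Asb4. It is printed 5′ to 3′ with each CpG in capitals, since CpG methylation is the mark of imprinting control regions, and methylation was not measured here. The Peg3 and Usp29 starts lie 147 bases apart on opposite strands of chromosome 7 and share the interval chr7:6730432-6730577 (GRCm38.p6, 146 bases, 5 CpG), shown on the strand of Peg3. A Mest start on chromosome 6 follows chr6:30737800-30738049 (forward strand, 250 bases, 14 CpG), inside the annotated gene body and outside its exons. The Asb4 start follows chr6:5383136-5383385 (forward strand, 250 bases, 4 CpG), outside any annotated exon. Mest was higher and Asb4 lower in D51 muscle.
Peg3 to Usp29 interval: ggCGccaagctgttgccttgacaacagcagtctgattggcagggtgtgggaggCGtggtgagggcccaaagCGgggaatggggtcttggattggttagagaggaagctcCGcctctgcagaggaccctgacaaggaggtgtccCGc
Mest: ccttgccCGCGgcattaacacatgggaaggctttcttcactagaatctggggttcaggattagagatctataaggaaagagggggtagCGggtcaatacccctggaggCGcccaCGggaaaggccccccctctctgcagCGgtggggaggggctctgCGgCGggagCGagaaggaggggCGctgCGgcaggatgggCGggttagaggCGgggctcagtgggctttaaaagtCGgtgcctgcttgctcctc
Asb4: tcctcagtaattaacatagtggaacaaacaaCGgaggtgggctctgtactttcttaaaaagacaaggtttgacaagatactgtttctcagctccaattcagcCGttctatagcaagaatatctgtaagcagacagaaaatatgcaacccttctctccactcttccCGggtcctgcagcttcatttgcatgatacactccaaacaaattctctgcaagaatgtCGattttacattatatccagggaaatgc
RefSeq promoter windows (250 bases before to 50 after a start) were at hand for 32 of the 37 genes, 47 windows in all, with a median of 13 CpG against 7 over 32817 windows. The palindrome GGGGCCCC occurred in 1.07% of all windows on either strand and in 4 of the 47, those of Peg3, Usp29, Ppp1r9a and Rasgrf1, of which the Peg3 and Usp29 windows overlap. GCCATNTT occurred in 6.04% of all windows and in 1 of the 47, that of Tfpi2. These matches describe letters in a window and are not binding sites.

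Most called imprinted genes rose. Of the 31 tested, 14 were higher in D51 muscle (45.2%), where 16.1% of all genes tested were higher. Lower levels were called for 2 (6.45%), where 11.9% of all genes were lower, and 15 were not called, so 16 were called in either direction, where 28.0% of all genes were (edgeR quasi-likelihood test, adjusted p under 0.05 over all genes tested). The median log2 fold change of the 31 was 0.46, with a middle range from 0.09 to 1.23, and that of all genes tested was -0.01. In 19 of the 31 every D51 library lay above every WT library, a pattern found in 23.8% of all genes. The reverse held for 2, a pattern found in 21.7% of all genes. The plot of levels by library shows each gene, and H19 stands apart from the rest by level.

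**Figure D1:**
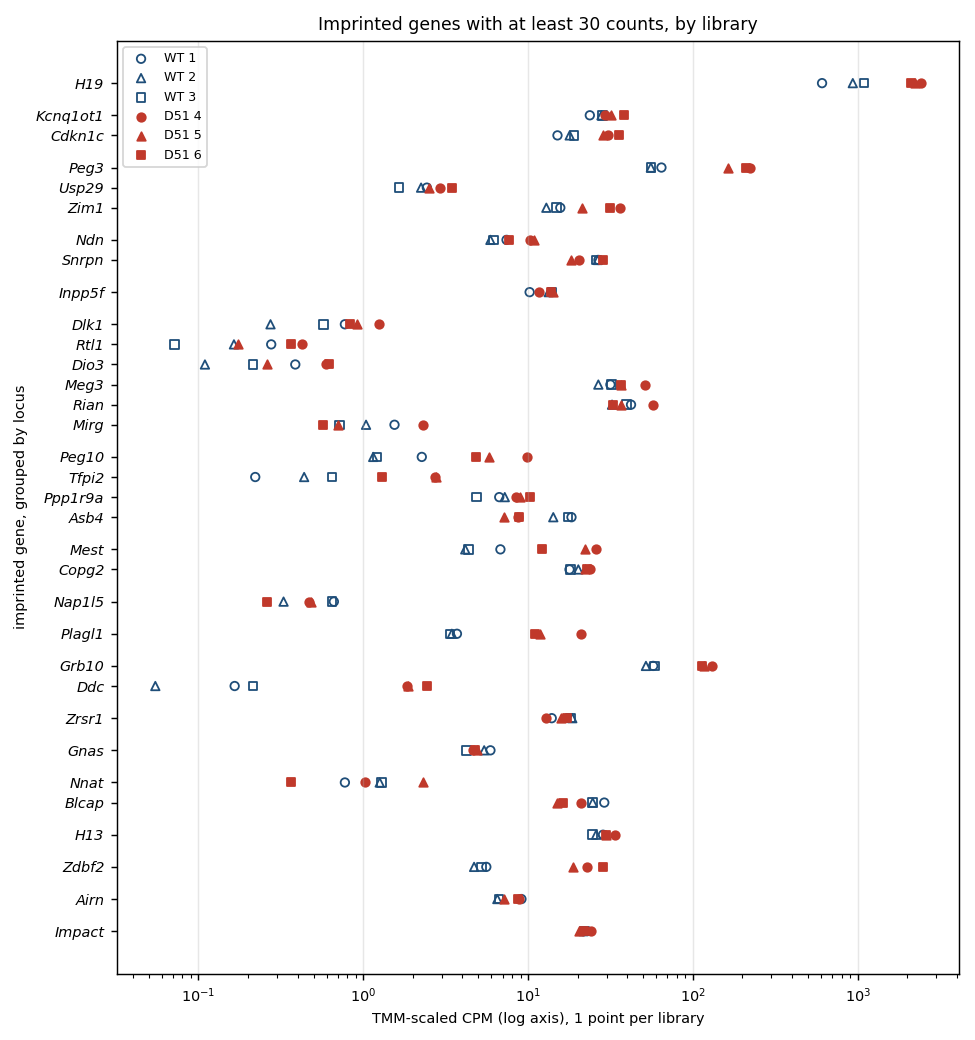
TMM-scaled CPM (log axis) of the 33 imprinted genes with at least 30 counts, grouped by locus, with 1 point per library (open blue symbols WT 1 to 3, filled red symbols D51 4 to 6). H19 lies between 608 and 2428 CPM, the red points of H19, Peg3, Grb10, Ddc and Zdbf2 stand clear of the blue ones to the right, and those of Asb4 stand to the left.

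The higher genes were not of 1 parental class. Of 15 tested genes known for paternal expression, 6 were higher and 0 lower (median log2 fold change 0.47). Of 7 known for maternal expression, 3 were higher and 1 lower (median 0.46), and of 9 with tissue-dependent or complex imprinting 5 were higher and 1 lower (median 0.29). Summed over the 33 genes without H19, levels were 435 to 471 CPM in WT and 840, 682 and 756 CPM in D51 4, 5 and 6. How calls divide between higher and lower depends on library scaling. The TMM factors lay between 0.869 and 0.899 for WT and between 1.04 and 1.19 for D51. With library size alone the median of all genes moved from -0.01 to 0.34 and that of the 31 from 0.46 to 0.82, 94.1% of all calls were in the higher direction (57.6% with TMM), and 20 imprinted genes were higher and 1 lower. All fold changes below are therefore read against the shift shared by most genes.

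**Figure D2:**
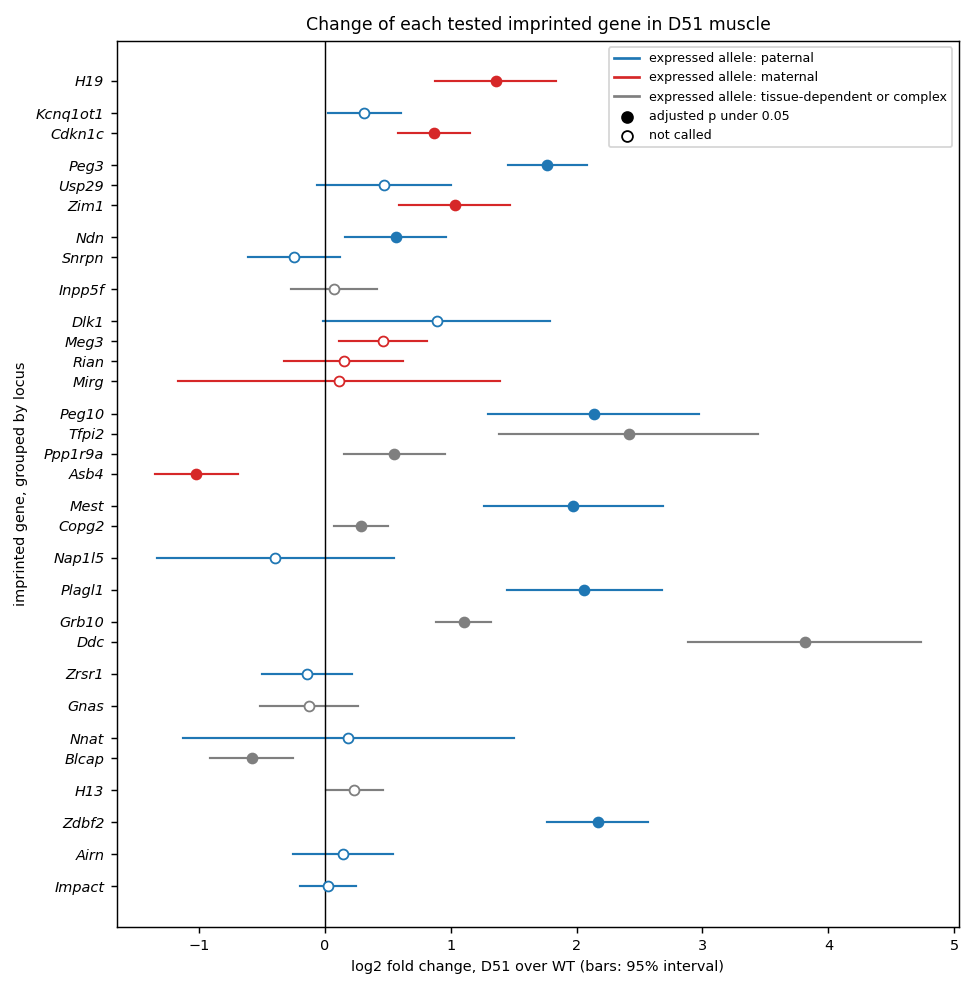
Log2 fold change (D51 over WT) of the 31 tested imprinted genes with 95% intervals, grouped by locus and coloured by the allele known to be expressed; filled points have an adjusted p under 0.05. The 14 filled points right of 0 run from Copg2 at 0.29 to Ddc at 3.81, and the filled points left of 0 are Asb4 at -1.02 and Blcap at -0.58.

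H19, a maternally expressed long noncoding RNA abundant in fetal muscle, was the most abundant imprinted transcript and was higher in D51 muscle. The gene lies at chr7:142575529-142578143 on the reverse strand. H19 stood at 608, 935 and 1094 CPM in WT 1, 2 and 3 and at 2428, 2228 and 2114 CPM in D51 4, 5 and 6. The lowest D51 library thus exceeded the highest WT library by far, and WT 1 was the lowest of all. The mean rose from 879 ± 248 to 2257 ± 159 CPM (SD, n = 3 each), a log2 fold change of 1.36 (SE 0.209, 95% interval 0.88 to 1.84, edgeR adjusted p = 0.00349). As a share of all counts H19 held 0.0547 to 0.0975% in WT and 0.219 to 0.283% in D51. Its rank among all genes moved from between 84 and 154 in WT to between 34 and 46 in D51. Per kilobase of exon H19 held 357 CPM in WT, and the next gene of the list, Snrpn, held 12.3. Other imprinted genes, read further below, reached 80.4.

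The neighbouring Kcnq1ot1 domain on the same arm gave 1 call among its 2 tested genes of the list. Cdkn1c, a maternally expressed inhibitor of cyclin-dependent kinases (chr7:143458339-143461050), stood at 15.1, 17.9 and 19.03 CPM in WT, against 30.7, 28.7 and 35.5 CPM in D51. Groups did not overlap, and the mean rose from 17.3 ± 2.03 to 31.6 ± 3.53 CPM (log2 fold change of 0.87, SE 0.125, edgeR adjusted p = 0.00278). Of its exon bases 30.7% lie over exons of a predicted gene on the other strand, so its counts are uncertain to that extent. Kcnq1ot1, the paternally expressed antisense RNA that silences this domain, was at 23.7, 27.9 and 28.3 CPM in WT, against 29.3, 32.0 and 38.2 CPM in D51. It was not called (0.32, edgeR adjusted p = 0.0956), although the groups did not overlap. Phlda2 held 0 counts and Ascl2 1 count in the 6 libraries, where 3 counts of the 114777661 in all correspond to 0.0261 CPM, a limit for counting error only.

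At the Peg3 domain of proximal chromosome 7, both zinc finger genes rose while Usp29 did not pass the test. Peg3, a paternally expressed zinc finger transcription factor known from satellite cells and other progenitors (chr7:6703892-6730431), stood at 64.5, 55.7 and 55.6 CPM in WT, against 224, 165 and 211 CPM in D51. D51 5 was the lowest D51 library and still lay far above WT. The mean rose from 58.6 ± 5.12 to 199.7 ± 31.1 CPM (log2 fold change of 1.77, SE 0.135, edgeR adjusted p = 3.14e-04). Zim1, a maternally expressed zinc finger gene (chr7:6671269-6696450), was at 15.7, 12.9 and 14.9 CPM in WT, against 36.4, 21.3 and 31.3 CPM in D51, again lowest in D51 5 and without overlap. Its mean rose from 14.5 ± 1.43 to 29.7 ± 7.65 CPM (1.03, SE 0.192, edgeR adjusted p = 0.00721). Usp29, which encodes a ubiquitin-specific protease and starts from the interval printed above, was at 2.43, 2.24 and 1.65 CPM in WT and 2.91, 2.49 and 3.47 CPM in D51. The groups of Usp29 lay next to each other, and it was not called (0.47, 95% interval -0.06 to 1.01, edgeR adjusted p = 0.160).

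Peg3 and Usp29 face away from each other across 147 bases, and their counts were compared within each library. The ratio of Peg3 to Usp29 counts was 26.5, 24.8 and 33.8 in WT and 77, 66.1 and 60.7 in D51, a mean difference of 1.27 on the log2 scale. Each D51 ratio lay above each WT ratio, and the two-sided exact permutation p was 0.1, the smallest that 3 against 3 libraries allow (0.117 adjusted over 7 pairs of genes by Benjamini-Hochberg). The 7 pairs were chosen after the values were seen.

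All 4 listed genes of the Peg10 domain of proximal chromosome 6 were called, 3 higher and 1 lower. Its tested neighbours outside the list were not called (log2 fold changes from -0.42 to 0.37). Peg10, a paternally expressed gene derived from a retrotransposon (chr6:4747306-4760517), stood at 2.27, 1.15 and 1.22 CPM in WT, against 9.91, 5.81 and 4.82 CPM in D51. D51 4 was the highest library by far, and the groups did not overlap. The mean rose from 1.54 ± 0.626 to 6.85 ± 2.70 CPM (log2 fold change of 2.14, SE 0.363, edgeR adjusted p = 0.00526). Tfpi2, an inhibitor of serine proteases that is imprinted mainly in extraembryonic tissue (chr6:3962595-3988919), held 4, 8 and 9 counts in WT and 64, 63 and 25 counts in D51. Its mean rose from 0.434 ± 0.211 to 2.26 ± 0.84 CPM (2.41, SE 0.447, edgeR adjusted p = 0.00700), and D51 6 was at 1.297 CPM against 2.73 and 2.75 CPM in D51 4 and 5. Ppp1r9a encodes neurabin 1, an actin-binding partner of protein phosphatase 1, and was at 6.69, 7.22 and 4.86 CPM in WT and 8.46, 8.96 and 10.3 CPM in D51. The gap between its groups was small, and the call (0.55, SE 0.173, edgeR adjusted p = 0.0462) was lost when any 1 of the 6 libraries was left out (0.41 to 0.67).

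Asb4 was the exception among the listed genes of the domain and fell. It encodes an ankyrin repeat protein of the SOCS box family, is known for maternal expression, and lies at chr6:5383386-5433022, after the promoter stretch with 4 CpG. Asb4 stood at 18.3, 14.2 and 17.5 CPM in WT, against 8.72, 7.17 and 8.82 CPM in D51, with every D51 library below every WT library. The mean fell from 16.7 ± 2.17 to 8.23 ± 0.925 CPM (log2 fold change of -1.02, SE 0.142, 95% interval -1.35 to -0.69, edgeR adjusted p = 0.00249). Sgce, the paternally expressed sarcoglycan gene whose start lies 99 bases from that of Peg10, was at 8.73, 6.68 and 9.23 CPM in WT and 10.7, 10.5 and 10.6 CPM in D51 and was not called (0.37, edgeR adjusted p = 0.0893). The ratio of Peg10 to Sgce counts was 0.259, 0.172 and 0.132 in WT and 0.928, 0.552 and 0.456 in D51, a mean log2 difference of 1.77 (two-sided exact permutation p = 0.1, 0.117 adjusted over the 7 pairs). The ratio of Peg10 to Asb4 counts was 0.0697 to 0.123 in WT and 0.547 to 1.14 in D51 (mean log2 difference 3.17, the same exact p values). That ratio restates the opposite calls of Peg10 and Asb4 and is no further test.

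**Figure D3:**
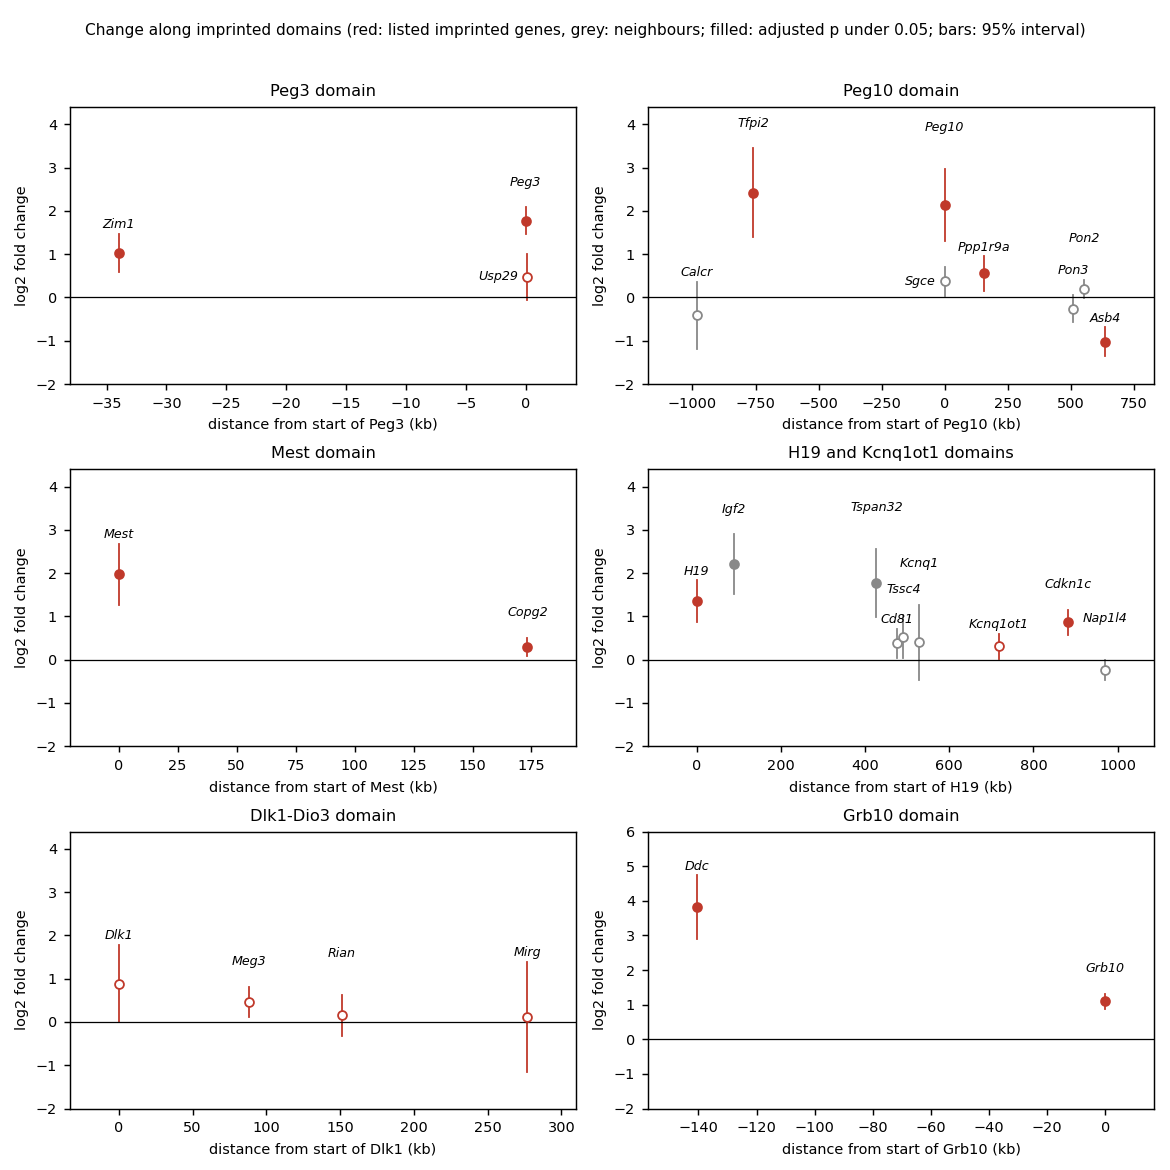
Log2 fold change (D51 over WT) with 95% intervals against the distance in kilobases from the start of the gene named in the title, for listed imprinted genes (red) and neighbouring imprinted genes (grey); filled points have an adjusted p under 0.05. Values range widely within a domain: Peg3 at 1.77 stands above Usp29 at 0.47, and Tfpi2 at 2.41 and Asb4 at -1.02 mark the range around Peg10, while no point of the Dlk1-Dio3 domain is filled.

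Mest and Copg2 overlap tail to tail on chromosome 6 and were both called higher, at log2 fold changes of 1.97 and 0.29. Mest, a paternally expressed gene of the alpha/beta hydrolase family known from mesoderm and growing fat tissue (chr6:30723547-30748465), stood at 6.80, 4.16 and 4.36 CPM in WT, against 25.98, 22.3 and 12.1 CPM in D51. D51 6 lay between the other D51 libraries and WT, and the groups did not overlap. The mean rose from 5.11 ± 1.47 to 20.1 ± 7.20 CPM (log2 fold change of 1.97, SE 0.309, edgeR adjusted p = 0.00379). Copg2, which encodes a subunit of the coatomer of transport vesicles (chr6:30747554-30896794), was at 17.9, 20.2 and 18.1 CPM in WT and 23.6, 22.3 and 22.9 CPM in D51 (0.29, SE 0.0931, edgeR adjusted p = 0.0491). That call was lost in 10 of 17 alternatives, including the removal of any 1 library (0.26 to 0.35). The ratio of Mest to Copg2 counts was 0.206 to 0.381 in WT and 0.528 to 1.10 in D51 (two-sided exact permutation p = 0.1, 0.117 adjusted over the 7 pairs). Their exons share 912 bases on opposite strands, 23.1% of those of Mest and 17.8% of those of Copg2. The sources used here do not give the strand setting of the counting, and reads from the shared bases cannot be placed with certainty.

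Plagl1 on chromosome 10 and Zdbf2 on chromosome 1, each the only listed gene of its locus, gave large rises. Plagl1, a paternally expressed zinc finger transcription factor that restrains the cell cycle (chr10:13060504-13131694), stood at 3.70, 3.45 and 3.36 CPM in WT, against 21.1, 11.8 and 10.995 CPM in D51. WT libraries were close together, D51 4 was highest, and the mean rose from 3.50 ± 0.177 to 14.6 ± 5.58 CPM (log2 fold change of 2.06, SE 0.267, edgeR adjusted p = 0.00193). Zdbf2, a paternally expressed zinc finger gene best known from the hypothalamus (chr1:63273265-63314576), was at 5.58, 4.71 and 5.22 CPM in WT, against 22.7, 18.7 and 28.4 CPM in D51. Here D51 6 was the highest library, and the mean rose from 5.17 ± 0.440 to 23.3 ± 4.87 CPM (2.17, SE 0.174, edgeR adjusted p = 3.66e-04).

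Both listed genes of the Grb10 domain of chromosome 11 rose. Grb10, an adaptor that dampens signalling from the insulin and insulin-like growth factor receptors and is expressed from the maternal allele outside the brain (chr11:11930508-12038683), stood at 57.5, 51.9 and 58.7 CPM in WT, against 130, 117 and 114 CPM in D51. The 3 libraries of each group were close together, and the mean rose from 56.0 ± 3.59 to 120 ± 8.75 CPM (log2 fold change of 1.10, SE 0.0946, edgeR adjusted p = 4.66e-04). Ddc, the decarboxylase of dopamine and serotonin synthesis (chr11:11814101-11898144), had the largest fold change among the 31 genes at a low level. It held 3, 1 and 3 counts in WT and 43, 43 and 47 in D51. The mean rose from 0.145 ± 0.0819 to 2.05 ± 0.335 CPM (3.81, SE 0.400, edgeR adjusted p = 9.38e-04), and the 7 counts of the WT group limit the precision of the fold. With the RPKM values that the authors deposited, on the log2(RPKM + 1) scale, the difference was 0.55, where low values weigh little.

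Weaker calls came from chromosomes 7 and 2. Ndn, the paternally expressed necdin gene, whose MAGE family protein binds E2F1 (chr7:62346569-62350262), was at 7.41, 5.91 and 6.15 CPM in WT and 10.3, 10.8 and 7.62 CPM in D51. D51 6 lay only just above WT 1, and the call (log2 fold change 0.56, SE 0.173, edgeR adjusted p = 0.0436) was lost without WT 2, WT 3, D51 4 or D51 5 (0.48 to 0.53) and by limma-voom (adjusted p = 0.0525). Snrpn of the same domain, which encodes a spliceosomal protein and shares 27.3% of its exon bases with other genes on its strand, was at 26.7, 26.5 and 26.1 CPM in WT and 20.4, 18.3 and 28.5 CPM in D51, with overlap (-0.24, edgeR adjusted p = 0.288). Magel2, its neighbour, held 0 counts. Blcap, the bladder cancer associated protein gene with promoter-dependent imprinting (chr2:157556362-157571274), was at 29.0, 24.7 and 24.6 CPM in WT and 20.98, 14.99 and 16.4 CPM in D51 (-0.58, SE 0.143, edgeR adjusted p = 0.0198). Its groups did not overlap, yet the call was lost without WT 1, WT 2 or D51 5 (-0.62 to -0.47) and with library size alone (-0.23). Nnat, the paternally expressed neuronatin gene inside an intron of Blcap, held 14, 23 and 18 counts in WT and 24, 53 and 7 in D51, which held both the highest and the lowest library (0.19, edgeR adjusted p = 0.833).

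None of the 4 listed genes tested in the Dlk1-Dio3 domain of chromosome 12 was called. Meg3, a maternally expressed long noncoding RNA (chr12:109541001-109571726), was at 31.6, 26.7 and 32.1 CPM in WT and 51.1, 36.7 and 36.7 CPM in D51. All D51 libraries were above WT, and the log2 fold change of 0.46 (SE 0.150) missed the threshold (edgeR adjusted p = 0.0521). Of 17 alternatives, 8 called it, and the adjusted p over all 17 ran from 0.00661 to 0.175. Rian, the next transcript downstream, was at 42.2, 32.3 and 39.7 CPM in WT and 57.0, 36.6 and 32.9 CPM in D51, with overlap (0.15, edgeR adjusted p = 0.625). Mirg, a microRNA host, was at 1.55, 1.04 and 0.715 CPM in WT and 2.31, 0.699 and 0.570 CPM in D51 (0.11, edgeR adjusted p = 0.896). D51 4 was the highest library of Meg3, Rian and Mirg alike, and without it Rian and Mirg were at -0.13 and -0.80.

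The paternally expressed genes of that domain were scarce. Dlk1, a membrane protein of the Notch ligand family known from muscle growth, held 14, 5 and 8 counts in WT and 29, 21 and 16 in D51. Its log2 fold change of 0.89 had a 95% interval from -0.01 to 1.79 (edgeR adjusted p = 0.126). Rtl1, a retrotransposon-derived gene, held 5, 3 and 1 counts in WT and 10, 4 and 7 in D51, and Dio3, which inactivates thyroid hormone, held 7, 2 and 3 against 14, 6 and 12. Both were left out by the filter, and their groups overlapped.

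The other genes did not pass the test. H13, a signal peptide peptidase gene, was at 28.5, 25.9 and 24.6 CPM in WT and 33.6, 29.8 and 29.6 CPM in D51, without overlap (0.23, edgeR adjusted p = 0.112). Impact, a regulator of translation, had the smallest difference of the 31 genes, at 21.7 to 22.03 CPM in WT and 20.4 to 24.2 CPM in D51 (0.02, 95% interval -0.20 to 0.25). Inpp5f, an inositol phosphatase gene, was at 12.5 ± 2.03 and 13.2 ± 1.35 CPM (0.07). Gnas, which encodes the stimulatory G protein alpha subunit, was at 5.18 ± 0.870 and 4.77 ± 0.118 CPM (-0.12). It shares 21.96% of its exon bases with antisense genes. Zrsr1, an RNA-binding splicing factor gene, was at 16.9 ± 2.55 and 15.3 ± 2.24 CPM (-0.14), and Nap1l5, a histone chaperone family gene, held 12, 6 and 9 counts in WT and 11, 11 and 5 in D51 (-0.39). Airn, the paternally expressed antisense RNA of Igf2r, was at 7.43 ± 1.47 and 8.22 ± 0.921 CPM (0.14). Rasgrf1 held 5 counts in all.

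Other imprinted genes, 37 neighbours and classical members outside the list, were also looked up, and 36 were in the count table. Those that passed the filter were read from the same fit. Of 27 tested, 4 were higher and 1 lower (14.8% and 3.70%, against 16.1% and 11.9% of all genes), with a median log2 fold change of 0.19. Igf2, the paternally expressed growth factor beside H19, was at 1.27, 0.876 and 0.644 CPM in WT and 4.96, 3.23 and 4.98 CPM in D51 (2.21, SE 0.301, edgeR adjusted p = 0.00229). H19 counts exceeded Igf2 counts in every library. The ratio of H19 to Igf2 counts was 479, 1068 and 1700 in WT and 490, 689 and 425 in D51, with overlap (mean log2 difference -0.87, two-sided exact permutation p = 0.3). Igf2r, the receptor that clears this factor, had means of 128 ± 6.13 and 140 ± 6.63 CPM and no call (0.14, edgeR adjusted p = 0.266). The other called neighbours were Tspan32 (1.77), Peg12 (1.67, lost without WT 2 or D51 4, at 1.31 and 1.36), Qpct (1.25, lost without WT 2, WT 3, D51 4 or D51 6, 0.96 to 1.28) and Trappc9, which was lower (-0.43). The Trappc9 call was lost without WT 1, WT 2, D51 4 or D51 5 (-0.40 to -0.39) and with library size alone (-0.09). Tspan32 held 9, 5 and 3 counts in WT and 27, 27 and 22 in D51. Peg12 held 8, 3 and 6 counts in WT and 35, 19 and 18 in D51. Such low WT counts limit the precision of both folds.

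Of 19 tested genes that set or keep imprints, 3 were higher and 1 lower (15.8% and 5.26%, against 16.1% and 11.9% of all genes). Their median log2 fold change was 0.06, and the share higher was near that of all genes. Dnmt1, the maintenance DNA methyltransferase, rose from 13.6 ± 0.306 to 20.6 ± 2.98 CPM (0.61, SE 0.123, edgeR adjusted p = 0.00968). Uhrf1, which guides Dnmt1 to newly copied DNA, stood at 0.718, 0.985 and 0.787 CPM in WT, against 7.52, 7.95 and 1.71 CPM in D51 (2.78, SE 0.571, edgeR adjusted p = 0.0101, and 0.0565 by limma-voom). Hells, a chromatin remodeller of replicating cells, was at 0.718, 0.766 and 1.07 CPM in WT and 4.999, 5.90 and 1.19 CPM in D51 (2.26, SE 0.566, edgeR adjusted p = 0.0210). D51 6 was the lowest D51 library of all 3, and the Hells call was lost without WT 1, WT 2, WT 3, D51 4 or D51 5. It was also lost by limma-voom and on the log2(RPKM + 1) scale. Tet3, a dioxygenase that removes DNA methylation, was called lower (-0.28, edgeR adjusted p = 0.0451), a call lost when any 1 library was left out. The Tet3 call was also lost without the filter, by DESeq2, by the edgeR likelihood-ratio test and with a replicate block. Its log2 fold change turned to 0.074 with library size alone. Summed over the 21 listed genes, levels were 649 to 695 CPM in WT and 673 to 677 CPM in D51.

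Markers of several cell types moved with the genotype, and their part in the results above was not tested. In bulk muscle, more cells of a type and more RNA per cell cannot be told apart. The summed level of 9 macrophage markers was 72.2 to 148 CPM in WT and 787, 1218 and 535 CPM in D51 4, 5 and 6, with 9 of 9 higher. For 10 satellite cell and myoblast markers it was 73.7 to 75.7 CPM in WT and 341, 333 and 379 CPM in D51 (7 of 10 higher). Myh3, the embryonic myosin heavy chain, made up much of that sum at 128, 87.4 and 193 CPM in D51, and without it the sums were 214, 245 and 186 CPM. For 6 cell cycle genes it was 4.32 to 8.73 CPM in WT and 105, 132 and 26.8 CPM in D51 (6 of 6 higher), and for 9 markers of fibro-adipogenic progenitors 274 to 390 CPM in WT and 661, 552 and 571 CPM in D51 (5 of 9 higher). Endothelial markers summed to 468 to 551 CPM in WT and 402, 411 and 329 CPM in D51 (4 of 7 lower), and muscle fibre markers to 116651 to 119268 CPM in WT and 76793, 74200 and 103975 CPM in D51 (1 of 8 lower). Pericyte markers (3 of 6) and Schwann cell markers (4 of 6) were also lower, tendon markers had 1 of 5 higher and adipocyte markers 0 of 5 called. Neuron markers summed to 1.56 to 3.00 CPM over the 6 libraries, with Snap25 and Nefl at 0 counts. Stmn2, the only neuron marker tested, was lower (log2 fold change of -0.87, edgeR adjusted p = 0.0361), and Tubb3, which the filter left out, was at 0.143 to 0.221 CPM in WT and 1.41, 1.27 and 0.363 CPM in D51.

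The D51 libraries were not alike in the size of the rise. Among the 14 higher imprinted genes, D51 4 was the highest D51 library in 8 and D51 6 the lowest in 7. No such count over all higher genes is given here, so these counts are not read as particular to imprinted genes. Relative to the mean rise of D51 4 and D51 5 over the WT mean, the rise in D51 6 was 27.8% for Ndn, 36.7% for Mest, 37.3% for Tfpi2, 51.9% for Peg10 and 57.9% for Plagl1. It was 85.2% for H19 and 85.7% for Grb10, 98.0% for Copg2, 112% for Peg3, 117% for Zim1, 134% for Ddc, 147% for Cdkn1c, 150% for Zdbf2 and 166% for Ppp1r9a. The plot of relative levels sets these genes beside the marker sums. Of these, the macrophage, cell cycle, endothelial and neuron sums were lowest in D51 6 among D51 libraries. The satellite cell and myoblast sum was highest in D51 6 with Myh3 and lowest there without it, and 7 of its 10 markers were lowest in D51 6.

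**Figure D4:**
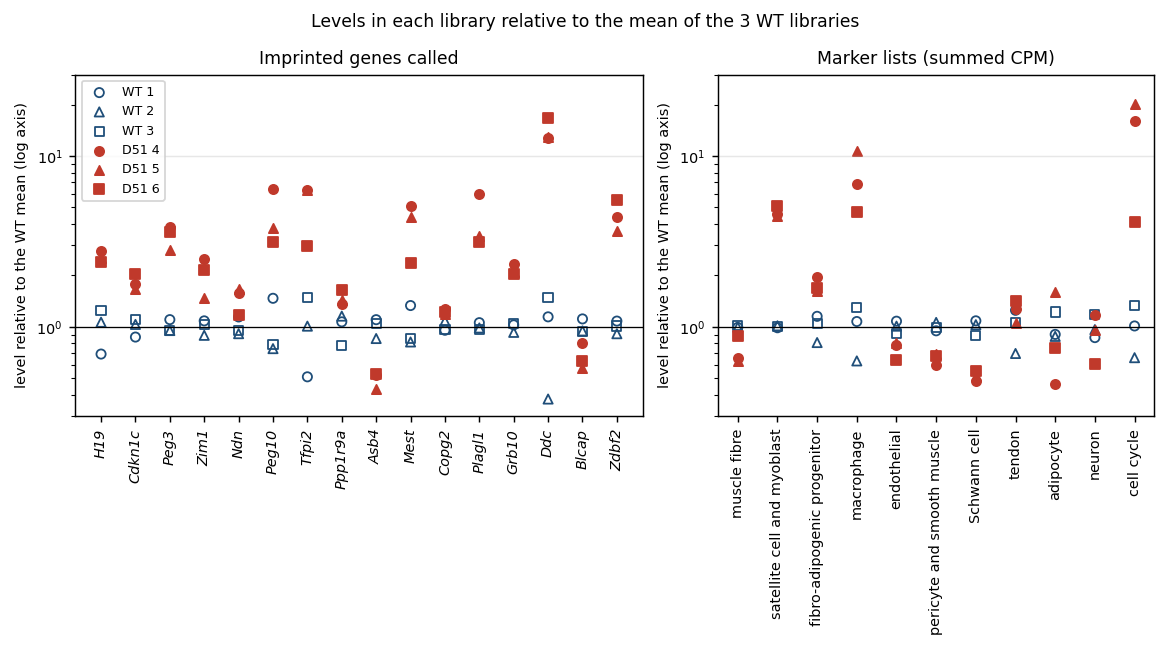
Level in each library divided by the mean of the 3 WT libraries (log axis), for the 16 called imprinted genes (left) and for summed marker lists (right); open blue symbols are WT 1 to 3 and filled red symbols D51 4 to 6. In D51 6 (red square) Mest, Tfpi2 and Peg10 lie below the other D51 libraries and Zdbf2, Ddc and Cdkn1c above them. Of the sums, macrophage (535 CPM), cell cycle (26.8 CPM), endothelial and neuron are lowest there among the D51 libraries.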

How the data were processed

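Poly(A) RNA of 6 muscle samples was sequenced from strand-marked libraries, per the labels' protocols. The authors deposited raw counts per gene, made with featureCounts 1.6.0 on GRCm38 after FastQC 0.11.4, per the submitters' processing notes. Not given in the sources used here are the aligner, the strand setting and the release of the annotation. The deposited RPKM values cover 13958 genes. The authors' table, made with edgeR 3.30.1 per the processing notes, holds log2 fold changes, average log2 CPM, a likelihood-ratio score, p-values and their −log10, per the file headers.

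Counts were tested by quasi-likelihood F-tests in edgeR 4.0.16 (R 4.3.3), with TMM scaling, filterByExpr by group and adjustment after Benjamini and Hochberg over 14335 genes, two-sided, with 3 libraries a group and calls at an adjusted p under 0.05. The SE is the absolute log2 fold change divided by the square root of F. Each p-value judges the difference between the groups against the spread between these libraries. Alternatives used limma 3.58.1 and DESeq2 1.42.0 among others, and the fit was tested on simulated data. Every listed gene with at least 30 counts is named, with up to 4 genes of smallest adjusted p in each further list, Igf2 and Igf2r, and any pair partner. Genes and lists were chosen with earlier results of these data known. Coordinates are from GENCODE M21 (GRCm38), whose exon lengths equal the deposited ones for 35 of the 37 genes, all but Airn and Impact. Promoter and microRNA sequences are from RefSeq (GRCm38.p6).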

Additional observations from a re-analysis of the deposited data

How the results depend on the processing

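Of the 16 called imprinted genes, 12 kept their call and direction in all 17 alternatives (H19, Cdkn1c, Peg3, Zim1, Peg10, Tfpi2, Asb4, Mest, Plagl1, Grb10, Ddc and Zdbf2). Ndn lost its call in 5, Blcap in 6, Ppp1r9a in 7 and Copg2 in 10. Of genes not called, Meg3 was called in 8, Kcnq1ot1 in 4, H13 and Impact in 3, and Usp29, Dlk1 and Snrpn in 1. On log2(RPKM + 1) low genes gave smaller values, 0.82 for Peg10, 0.98 for Tfpi2, 1.12 for Plagl1 and 1.16 for Zdbf2. Over all genes, library size alone gave 5376 higher and 335 lower genes, log2 RPKM with a pseudocount of 0.1 gave 5222 and 308, and with a pseudocount of 1 it gave 5070 and 308, against 2309 and 1701. Imprinted genes called lower numbered 1 in these 3 settings, and higher 20, 18 and 18. Leaving out 1 library gave 1344 to 2633 higher and 640 to 1932 lower genes, and 11 to 13 higher and 1 to 3 lower imprinted genes. The fewest came without WT 2 (1344 and 640), while 980 and 750 were lower without D51 4 and D51 5. Lower calls numbered 1 without WT 1, WT 2 or D51 5 and 3 without D51 6, where Snrpn was added (-0.43). Among the 12 tested genes whose body meets no other gene, 8 were higher and 1 lower, and among the 20 that share no exon, 11 and 2; fewer genes enter there. Other changes of count had no cause tested.

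Signs turned for uncalled genes with library size alone and with log2 RPKM (pseudocount 0.1, then 1): Snrpn 0.093, 0.083 and 0.078, Zrsr1 0.21, 0.21 and 0.17, Gnas 0.23, 0.19 and 0.070, and the called Tet3 0.074, 0.072 and 0.056. Under limma-voom Mirg was -0.10 and Nnat -0.10. Leaving out 1 library gave -0.056 to 0.16 for Inpp5f (lowest without WT 1), -0.13 to 0.32 for Rian, -0.80 to 0.45 for Mirg and -0.044 to 0.093 for Impact (lowest without D51 4), and -0.61 to 0.62 for Nnat (lowest without D51 5). Mirg was also below 0 without WT 3 and Nnat without WT 1.

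The labels number the biological replicates 1 to 3 in each group, in a field apart from the library names, so that WT 1, 2 and 3 share a replicate number with D51 4, 5 and 6. Of these, only WT 1 and D51 4 deviated together (r = 0.35, against -0.01 and 0.06). With 3 libraries a group these values cannot settle whether the numbers pair the samples, and the main fit used no pairing. With a replicate block 2508 genes were higher and 1960 lower, with 14 and 2 imprinted genes, of which Ppp1r9a and Copg2 lost and Meg3 and Kcnq1ot1 gained a call. Depth limits the genes under 100 counts (Dlk1, Nap1l5, Rtl1 and Dio3, and Tspan32 and Peg12 outside the list) and the WT level of Ddc.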

Other observations

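The authors' deposited table was matched to 31 of the listed imprinted genes, a set that holds Rtl1 and not Nap1l5 and so differs by 1 gene from the 31 tested here. By that table of the authors, 14 of them are higher and 2 lower at an adjusted p under 0.05. The share called over all genes of that table was not computed. That table compares the same groups, so its counts are not independent of those above. The average log2 CPM in that table exceeds the log2 of the mean CPM computed here by a median of 0.16 over 13946 genes, and by 0.72 at the 95th percentile. Of the 31 matched imprinted genes, 19 lay above that percentile and 12 were among the 100 largest. For Dlk1 the authors' deposited table gives 4.05 against -0.29 here, a gap of 4.34 that ranked 2 among all genes. The gap was 2.99 for Rtl1, 2.95 for Mirg, 2.74 for Rian, 2.26 for Plagl1, 2.05 for Igf2, 2.03 for Meg3 and 1.63 for Mest. The average in that table was therefore not used for any level above, and the cause of the gap was not tested.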
